A study of Mus musculus with 36 samples.

Results

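Mouse macrophages exposed to bacterial lipopolysaccharide (LPS) held 38 protein-coding genes whose mRNA was low after 2 h and back near, or above, the starting level by 8 h. They were chosen in the WT libraries by 3 conditions on mean CPM (read counts scaled to a standard library size, here with library totals corrected by the trimmed mean of M-values, TMM). The control mean had to be at least 5 CPM, the 2 h mean at most 50% of control and the 8 h mean at least 80% of control. The 38 genes stand among 9239 protein-coding genes that met the control condition, 0.411% of them, and among 12957 genes tested in all. In WT another 262 genes were lowered to 50% or less at 2 h and had not reached 80% at 8 h. The genes were thus chosen by the WT values, which are given as a description, and the tests below rest on the NOS1 KO libraries, which the choice did not use.

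The cells were bone marrow-derived macrophages, kept for 5 days in 20 ng/mL of M-CSF, the growth factor that turns marrow precursors into macrophages. There were 6 groups of 6 RNA-seq libraries, NOS1 KO and WT cells, each as controls and after 100 ng/mL LPS for 2 h or 8 h, and the design text gives the wild type as C65BL6. The labels name no clone, allele, animal, sex or batch, and they begin the genotype with BMDM in 1 library of each group. They do not say whether the libraries within a group are separate cultures, so p-values measure no more than the spread among libraries, part of which may be technical. Nos1, which encodes neuronal nitric oxide synthase, had 30 to 83 raw counts in NOS1 KO controls, against 0 to 3 in WT controls. That goes against a simple reading of the KO label. Counts do not show whether the transcript is intact, and whether a label is wrong or the changed allele leaves a transcript was not tested. The groups are called here as they are labelled, and every direction between NOS1 KO and WT rests on those labels.

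Library totals ran from 8953489 to 18482551 counts, and the members had 12 to 8333 raw counts in a library. Macrophage markers, 13 genes, summed to 15058 to 25631 CPM over all groups. In NOS1 KO the sum was 15392 to 19663 CPM in controls and 20867 to 24207 CPM at 8 h. Lyz2 alone was at 9619 to 13008 CPM in these controls and 9298 to 11984 CPM at 8 h. The other 12 genes summed to 5712 to 6655 CPM in these controls and 11569 to 13151 CPM at 8 h. A 14-gene T and NK cell list summed to 5.67 to 11 CPM in NOS1 KO controls, 6.20 to 15.7 CPM at 2 h and 16.9 to 29.2 CPM at 8 h. Of that list Cd4 reached 14.9 CPM and Lck 20.7 CPM, while Cd3e and 3 others were at 0 in all 36 libraries, and its part in the members' levels was not tested. Skeletal muscle markers reached 590.3 CPM in 1 WT library at 2 h and 4926 CPM in 1 WT library at 8 h, against at most 73.0 CPM in the NOS1 KO libraries. Without the 4 WT libraries that held most muscle transcripts (replicates 5 and 6 of both LPS times), 33 of the 38 genes still met the conditions in WT. The libraries of every group also fell into 2 unlabelled sets of 3, called set A and set B, which the first principal component within groups separated with 34.6% of the variance. Values within each set are given for the genes in which they differed by at least 1.5 times in NOS1 KO. RNA from a whole culture cannot tell fewer cells of a kind from less RNA per cell.

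LPS is sensed by Toll-like receptor 4, and the first hours of its response are known for waves of inflammatory genes driven by NF-kB, AP-1 and, through interferon beta, STAT factors. A transcript can fall within hours only where its mRNA is short-lived or is actively degraded, and many such transcripts encode transcription factors, ubiquitin ligase subunits and signalling regulators. How long the mRNA of the 38 genes lasts was not measured here, and why these genes fell was not tested.

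The pattern was repeated in NOS1 KO macrophages. At 2 h 37 of the 38 genes were called lower than in control (edgeR's quasi-likelihood test, Benjamini-Hochberg adjusted p below 0.05), against 16.4% of all genes tested. Between 2 h and 8 h all 38 were called higher, against 31.5% of all genes, and 37 were called both lower at 2 h and higher afterwards, against 5.02%. The median log2 fold change of the 38 was -1.13 at 2 h, with a range of -1.91 to -0.78, where all genes had a median of -0.01. From 2 h to 8 h it was 1.47, with a range of 0.61 to 4.09, where all genes had a median of -0.04. In 33 of the 38 genes every NOS1 KO library at 2 h lay below every NOS1 KO control (8.82% of all genes), in 34 every 8 h library lay above every 2 h library (23.1%), and 31 genes showed both (1.91%). The 1 gene not called at 2 h was Nlrp10, with a log2 fold change of -0.83 ± 0.40 (SE, adjusted p = 0.109).

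All 3 conditions were met by the NOS1 KO means of 29 of the 38 genes, where 0.497% of the 9249 protein-coding genes with a NOS1 KO control mean of at least 5 CPM met them. At 2 h 30 genes stood at 50% of control or less (2.95% of those 9249 genes), and at 8 h 37 stood at 80% or more (62.3%). The same conditions applied to the NOS1 KO libraries gave 46 genes. The 29 shared genes were 76.3% of the WT list and 63.0% of the NOS1 KO list. Of 273 genes at 50% or less at 2 h in NOS1 KO, 16.8% met all 3 conditions. The direction of the change at 2 h did not depend on how libraries were scaled, but the size of the fall and the return did. On library totals the highest NOS1 KO mean at 2 h was that of Rgs14, at 47.4% of control, against 58.2% with TMM. On library totals without TMM, the NOS1 KO means of 17 of the 38 genes met the conditions and 14 of the 38 kept their place in WT.

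**Figure D1:**
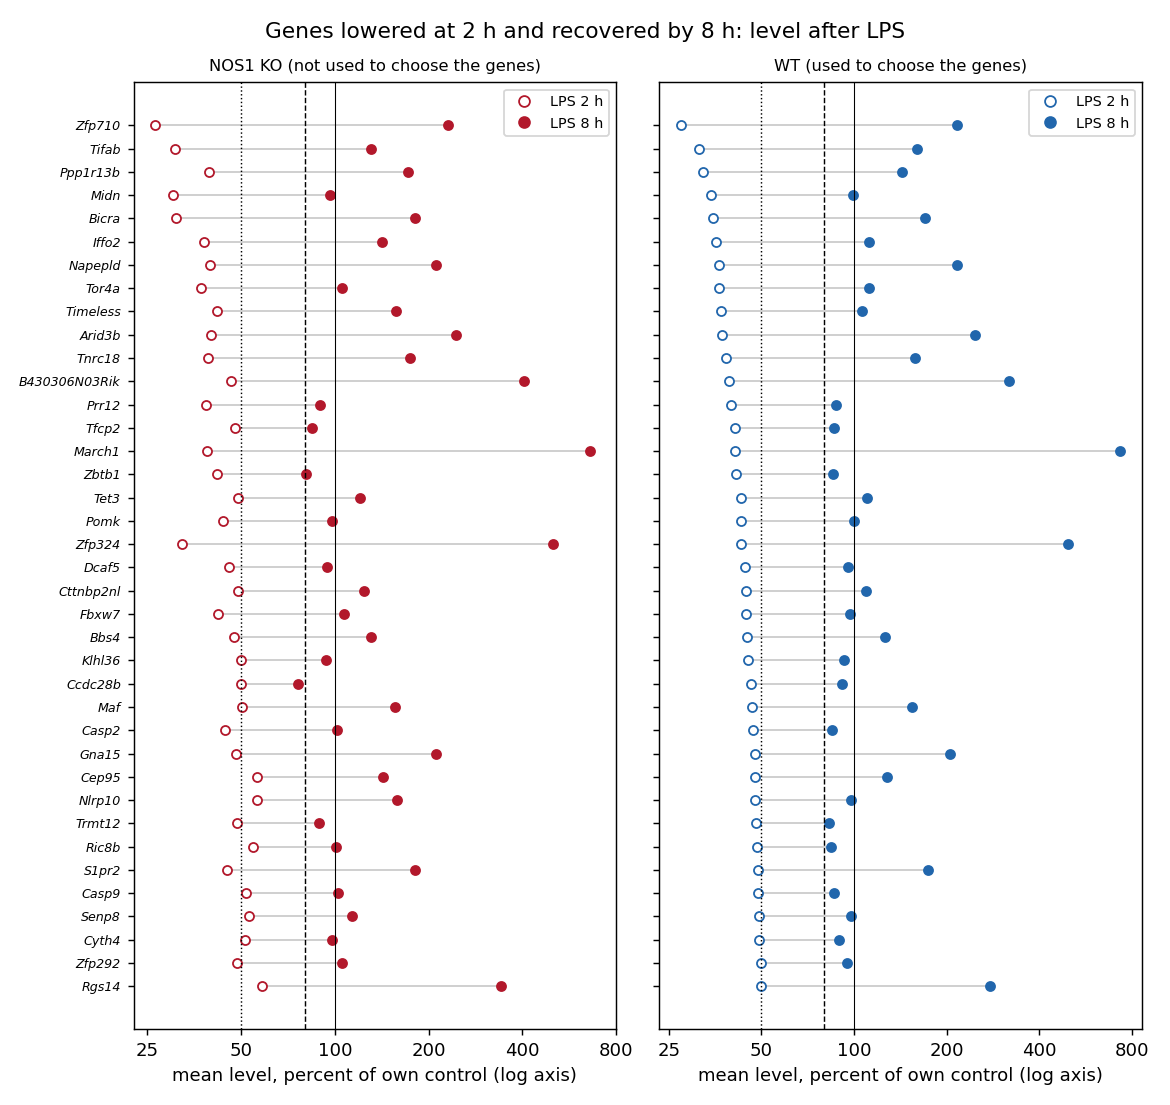
Mean level of each of the 38 genes at 2 h (open circles) and 8 h (filled circles) as a percent of its own control on a log axis, in NOS1 KO (left) and WT (right), with lines at 50%, 80% and 100%. In NOS1 KO the genes stood at 26.5% to 58.2% of control at 2 h and at 76.2% to 660.1% at 8 h, and March1, Zfp324, B430306N03Rik and Rgs14 stood above 300% at 8 h.

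**Figure D2:**
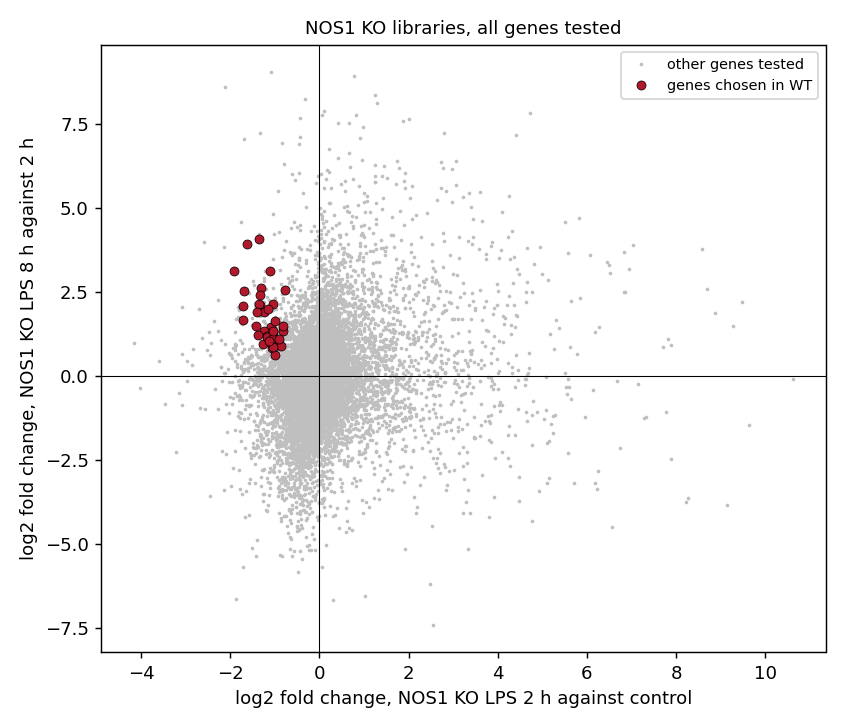
Log2 fold changes in NOS1 KO libraries at 2 h against control (x axis) and at 8 h against 2 h (y axis) for all 12957 genes tested (grey) and the 38 genes chosen in WT (red). The 38 lie together in the upper left, with x between -1.91 and -0.78 and y between 0.61 and 4.09.

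The deepest fall in WT was that of Zfp710 (chr7:80024814-80094173, plus strand, mm10), which encodes a C2H2 zinc finger protein. In NOS1 KO libraries Zfp710 was at 86 to 109 CPM (median 89.4) in controls, 16.5 to 28.1 CPM (median 25.6) at 2 h and 158 to 282 CPM (median 203) at 8 h. In WT libraries it was at 74.6 to 105 CPM (median 88.5) in controls, 18 to 41.7 CPM (median 21.2) at 2 h and 127 to 259 CPM (median 194) at 8 h. The 3 times do not overlap in either genotype, with 2 h lowest and 8 h highest. In NOS1 KO the log2 fold change was -1.91 ± 0.20 at 2 h against control (SE, edgeR adjusted p = 9.86e-10) and 3.12 ± 0.21 at 8 h against 2 h (adjusted p = 5.41e-15). At 8 h it stood 1.21 ± 0.19 above control on the log2 scale (adjusted p = 1.15e-06).

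Tifab (chr13:56173704-56178885, minus strand) encodes a protein that restrains TRAF6 signalling downstream of Toll-like receptors in mouse blood stem cells. Tifab was at 29 to 49.8 CPM (median 31.8) in controls, 8.66 to 13.9 CPM (median 10.7) at 2 h and 23.7 to 73.3 CPM (median 43.7) at 8 h in NOS1 KO libraries. The 2 h libraries lay below all others, and the 8 h libraries spanned the controls. Tifab was at 24.6 to 34.7 CPM (median 32.5) in controls, 6.91 to 15.5 CPM (median 8.99) at 2 h and 20.3 to 81.6 CPM (median 48) at 8 h in WT libraries, with the same order and the same wide spread at 8 h. In NOS1 KO the log2 fold change was -1.71 ± 0.33 at 2 h (adjusted p = 8.07e-05) and 2.10 ± 0.33 from 2 h to 8 h (adjusted p = 1.44e-06). Its 8 h mean was 169% of control in set A and 80.8% in set B of NOS1 KO, beside 251% and 69.1% in WT. Napepld (chr5:21662901-21701396, minus strand) encodes the phospholipase that releases N-acylethanolamines, a family of lipid mediators, from membrane phospholipids. It was at 8.70 to 12.2 CPM (median 10.5) in controls, 3.33 to 5.98 CPM (median 3.84) at 2 h and 13.5 to 31 CPM (median 22.2) at 8 h in NOS1 KO libraries, with all 8 h libraries above all controls and all 2 h libraries below them. The fall was -1.33 ± 0.23 on the log2 scale (adjusted p = 1.59e-05) and the later rise 2.41 ± 0.23 (adjusted p = 5.75e-11). Its 8 h mean was 313% of control in set A and 131% in set B of NOS1 KO, beside 307% and 138% in WT.

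The promoters of these 3 genes are shown because they are the members with the lowest WT level at 2 h that have a single RefSeq start and a window outside the gene's annotated span. Each line is the 250 bases before the RefSeq start in GRCm38.p6, the build of mm10, written 5′ to 3′ on the gene's strand, with capitals for a CCAAT box (CCAAT), GC box (GGGCGG), ETS core (CCGGAAG), cAMP response core (TGACG) or YY1 core (AAGATGG) on either strand.
Zfp710, chr7:80024564-80024813, plus strand: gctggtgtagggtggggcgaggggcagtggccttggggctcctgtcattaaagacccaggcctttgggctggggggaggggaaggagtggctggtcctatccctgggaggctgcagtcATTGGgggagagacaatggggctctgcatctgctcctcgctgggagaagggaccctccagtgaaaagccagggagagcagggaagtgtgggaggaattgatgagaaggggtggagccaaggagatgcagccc
Tifab, chr13:56178886-56179135, minus strand: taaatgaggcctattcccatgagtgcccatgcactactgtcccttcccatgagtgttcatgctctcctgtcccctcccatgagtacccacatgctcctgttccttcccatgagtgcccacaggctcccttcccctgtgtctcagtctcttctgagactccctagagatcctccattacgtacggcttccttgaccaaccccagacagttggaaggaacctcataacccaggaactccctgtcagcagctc
Napepld, chr5:21701623-21701872, minus strand: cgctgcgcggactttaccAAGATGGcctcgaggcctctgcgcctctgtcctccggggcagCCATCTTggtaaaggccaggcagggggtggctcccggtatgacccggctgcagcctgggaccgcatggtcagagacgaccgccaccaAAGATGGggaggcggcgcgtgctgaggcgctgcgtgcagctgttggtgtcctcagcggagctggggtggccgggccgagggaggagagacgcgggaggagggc

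The Zfp710 window holds 1 CCAAT box, the Napepld window 3 YY1 cores and the Tifab window none of these motifs. Windows were found for 30 of the 38 genes. A CCAAT box was in 36.7% of them, beside 40.7% of 9344 protein-coding genes tested, and a GC box in 56.7%, beside 63.8%. The cAMP response core was in 26.7% beside 30.7%, the ETS core in 13.3% beside 16.2% and the YY1 core in 3.33% beside 5.33%. An E box (CACGTG) was in 10% beside 9.97%, a TATA box (TATAAA) in 6.67% beside 7.8% and an AP-1 site (TGANTCA) in 3.33% beside 5.59%. Both strands were searched, and none of the 8 motifs contains another. No motif searched stood out in the members. The median GC content of the windows was 62% in the members and 59.6% in all genes.

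Of the 38 genes, 12 encode nuclear proteins that bind DNA or work on chromatin or replication forks, a grouping made after their values were seen. All 12 were called lower at 2 h and higher from 2 h to 8 h in NOS1 KO, as were 37 of the 38 members. The 3 conditions were met there by 11 of the 12, beside 29 of the 38. Bicra, a subunit of a non-canonical SWI/SNF chromatin remodelling complex, was at 9.21 to 23.5 CPM (median 15.6) in controls, 3.96 to 5.64 CPM (median 4.94) at 2 h and 22.3 to 35.7 CPM (median 28.5) at 8 h in NOS1 KO libraries. Its 2 h libraries lay below all others, and the log2 fold changes were -1.69 ± 0.23 at 2 h and 2.54 ± 0.23 from 2 h to 8 h (adjusted p = 2.16e-07 and 1.26e-11). Arid3b, an ARID family DNA-binding protein, was at 10.6 to 13.7 CPM (median 11.6) in controls, 4.0 to 6.61 CPM (median 4.27) at 2 h and 26.3 to 31.7 CPM (median 28) at 8 h. Its 3 times did not overlap, and the 8 h level was 244% of control. Tnrc18, a chromatin protein with a BAH domain, was at 50.2 to 68.8 CPM (median 55.6) in controls, 20.9 to 26.2 CPM (median 22.6) at 2 h and 86.6 to 117 CPM (median 103) at 8 h. It too separated all 3 times, and it was called higher at 8 h than in control (0.80 ± 0.12, adjusted p = 3.77e-07).

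Zfp324, another C2H2 zinc finger gene, had the lowest counts of the strongly rising members. It was at 4.98 to 8.18 CPM (median 6.24) in controls, 1.11 to 2.69 CPM (median 2.07) at 2 h and 16.1 to 47.7 CPM (median 31) at 8 h in NOS1 KO libraries. The 3 times did not overlap, and the rise from 2 h to 8 h was 3.94 ± 0.32 on the log2 scale (adjusted p = 5.71e-13). The size of that rise differed between the sets, with an 8 h mean of 856% of control in set A and 240.0% in set B of NOS1 KO, and 866% and 264% in WT. Timeless, which stabilises replication forks, was at 9.35 to 34.5 CPM (median 23.8) in controls, 4.62 to 13.2 CPM (median 10.6) at 2 h and 24.2 to 46.2 CPM (median 36) at 8 h. At 2 h its libraries overlapped the lowest control, and the fall was -1.25 ± 0.29 (adjusted p = 0.000822). Timeless does not stand on the DNA replication list. Of the 55 genes of that list tested 46 were called lower from 2 h to 8 h in NOS1 KO and 1 higher, where the value of Timeless was 1.90 ± 0.30 (adjusted p = 9.89e-07). The list's median log2 fold change was -1.29, beside -0.04 for all genes.

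Maf encodes c-Maf, a basic leucine zipper factor that drives interleukin-10 and is a defining factor of resident macrophages. It was the most abundant of the nuclear members, at 178 to 352 CPM (median 218) in controls, 82.5 to 186 CPM (median 113) at 2 h and 323 to 469.8 CPM (median 366.3) at 8 h in NOS1 KO libraries and 197 to 304 CPM (median 225) in controls, 72.8 to 161 CPM (median 102) at 2 h and 257 to 493 CPM (median 361) at 8 h in WT libraries. In NOS1 KO the highest 2 h library lay within the controls, and the highest control lay within the 8 h libraries. The 2 h mean was 50.5% of control, just above the 50% of the rule, with a log2 fold change of -0.99 ± 0.22 (adjusted p = 0.00039). The 8 h level was higher than control by 0.64 ± 0.21 (adjusted p = 0.00859). Maf was the single member on a list of macrophage identity factors. Of the 31 tested on that list 9 fell and 10 rose at 2 h in NOS1 KO. The list's median log2 fold change was 0.22, beside -0.01 for all genes.

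Tet3, a dioxygenase that oxidises methylated cytosine in DNA, was at 60.2 to 91.2 CPM (median 68.1) in controls, 26.5 to 47.6 CPM (median 31.5) at 2 h and 80.6 to 98 CPM (median 82.3) at 8 h in NOS1 KO libraries. Its 2 h libraries lay below all controls, with a log2 fold change of -1.04 ± 0.12 (adjusted p = 8.93e-09), and at 8 h it was called slightly above control (0.27 ± 0.12, adjusted p = 0.0413). Zbtb1, a BTB zinc finger repressor required for lymphocyte development in mice, was at 17.4 to 20.1 CPM (median 19.3) in controls, 6.56 to 9.43 CPM (median 7.78) at 2 h and 14 to 17.1 CPM (median 15.3) at 8 h. It returned part of the way: all 8 h libraries lay above all 2 h libraries and below all controls. It was the single member called lower at 8 h than in control (-0.31 ± 0.10, adjusted p = 0.00603), where 37.2% of all genes were. Prr12, a proline-rich nuclear protein, Tfcp2, a factor of the grainyhead-like family, and the zinc finger gene Zfp292 stood at 38.6%, 47.9% and 48.4% of control at 2 h in NOS1 KO. At 8 h they stood at 89.7%, 84.5% and 106%, and none was called against control.

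The list of C2H2 zinc finger genes, with 4 members on it (Zfp710, Zbtb1, Zfp324 and Zfp292), had more genes lower than higher at 2 h. Of 390 tested in NOS1 KO, 180 were called lower and 52 higher at 2 h, with a median log2 fold change of -0.42, beside -0.01 for all genes. From 2 h to 8 h 152 were called higher and 72 lower, with a median of 0.25, beside -0.04 for all genes. At 8 h 147 were lower and 102 higher than in control. These are directions on the TMM scale, and without TMM the all-gene median from 2 h to 8 h was -0.57, larger in size than the 0.25 of the list.

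The group of protein turnover genes held 6 members. All 6 were called lower at 2 h and higher afterwards in NOS1 KO, as were 37 of the 38 members. March1 encodes a membrane-bound ubiquitin ligase that sends MHC class II and CD86 to lysosomes in antigen-presenting cells, and it had the largest overshoot of the 38. March1 was at 14.4 to 42.7 CPM (median 21.2) in controls, 6.72 to 13.8 CPM (median 9.58) at 2 h and 131 to 243 CPM (median 147) at 8 h in NOS1 KO libraries and 13.7 to 34.2 CPM (median 19) in controls, 4.45 to 13.9 CPM (median 7.26) at 2 h and 85.3 to 226 CPM (median 142) at 8 h in WT libraries. In both genotypes every 8 h library lay above every control. At 2 h every NOS1 KO library lay below the NOS1 KO controls, while the highest WT library reached into the WT controls. In NOS1 KO the log2 fold changes were -1.36 ± 0.34 at 2 h (adjusted p = 0.00177) and 4.09 ± 0.37 from 2 h to 8 h (adjusted p = 9.8e-12), and the 8 h mean was 660.1% of control. By set that mean was 569.9% in set A and 873% in set B of NOS1 KO, and the order was opposite in WT, at 795% and 618%. March1 is also abundant in dendritic and B cells. An 11-gene dendritic cell marker list summed to 155 to 382.4 CPM in NOS1 KO controls, 190.2 to 442 CPM at 2 h and 775 to 1264 CPM at 8 h, and a 12-gene B cell list to 137 to 202 CPM, 172 to 207 CPM and 225 to 321 CPM. In both lists 1 gene held most of the 8 h sum. Bst2 alone was at 653 to 1166 CPM and the other 10 dendritic cell genes summed to 85.8 to 123 CPM at 8 h, against 41.7 to 101 CPM in NOS1 KO controls. Blnk alone was at 216 to 302 CPM and the other 11 B cell genes summed to 5.93 to 19.3 CPM at 8 h, against 12 to 48 CPM in NOS1 KO controls. Their part in the rise of March1 was not tested.

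Midn encodes midnolin, which carries nuclear proteins to the proteasome without ubiquitin. Midn was at 33.6 to 56.7 CPM (median 46.6) in controls, 9.10 to 16.2 CPM (median 14.7) at 2 h and 32.9 to 56.7 CPM (median 43.5) at 8 h in NOS1 KO libraries. Its 2 h libraries lay below all others and the 8 h and control ranges nearly coincided, with log2 fold changes of -1.73 ± 0.19 at 2 h (adjusted p = 2.19e-09) and -0.06 ± 0.18 at 8 h against control (adjusted p = 0.791). The 2 h mean was 40.3% of control in set A and 23.6% in set B, beside 48.3% and 23.7% in WT. Fbxw7, the substrate receptor through which SCF ligases target MYC and cyclin E, was at 22.4 to 25.7 CPM (median 25.3) in controls, 8.86 to 13.6 CPM (median 10.2) at 2 h and 22.8 to 32.2 CPM (median 25.4) at 8 h. It fell by 1.24 on the log2 scale at 2 h (SE 0.12, adjusted p = 2.39e-10), with no overlap, and stood at 107% of control at 8 h.

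Dcaf5, a substrate receptor of CUL4 ligases, Klhl36, of the Kelch family that serves CUL3 ligases, and Senp8, the protease that removes NEDD8 from cullins and other proteins, fell less. Their NOS1 KO means at 2 h were 45.9%, 49.9% and 52.9% of control, and at 8 h 94.4%, 93.8% and 113%. In each of the 3 genes all 2 h libraries lay below all controls. Over the 235 tested genes of a ubiquitin ligase and F-box list, which holds March1, Fbxw7 and Klhl36, 68 were called lower and 45 higher at 2 h. From 2 h to 8 h 99 of them were called higher and 61 lower. The list's median log2 fold changes were -0.09 and 0.14, beside -0.01 and -0.04 for all genes. Of all genes 16.4% were called lower at 2 h and 31.5% higher from 2 h to 8 h. These too are directions on the TMM scale, and without TMM the all-gene median from 2 h to 8 h was -0.57.

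Genes of G protein and Arf signalling made up 5 members, all called in both steps in NOS1 KO, as were 37 of the 38 members. S1pr2, a receptor for sphingosine 1-phosphate, was at 90.2 to 129.8 CPM (median 105) in controls, 39.3 to 58.2 CPM (median 48.7) at 2 h and 155 to 231 CPM (median 197) at 8 h in NOS1 KO libraries and 84.4 to 112 CPM (median 99.9) in controls, 36.9 to 58.8 CPM (median 49.1) at 2 h and 133 to 234 CPM (median 163) at 8 h in WT libraries. The 3 times did not overlap in either genotype, and in NOS1 KO the log2 fold changes were -1.15 ± 0.14 at 2 h (adjusted p = 3.86e-08) and 0.85 ± 0.14 at 8 h against control (adjusted p = 1.86e-06). Its 8 h mean was 244% of control in set A and 132% in set B of NOS1 KO, beside 224% and 129% in WT. Gna15, a G protein alpha subunit of the Gq class found in blood cells, was at 8.72 to 19.5 CPM (median 15.8) in controls, 4.77 to 9.72 CPM (median 7.59) at 2 h and 15.4 to 51.8 CPM (median 31.6) at 8 h. Its 2 h libraries overlapped the controls, and its return differed by set: the 8 h mean was 391.5% of control in set A and 91.5% in set B of NOS1 KO, beside 326% and 98.6% in WT. S1pr2 was the single member on a G protein-coupled receptor list, of whose 95 tested genes 18 fell and 29 rose at 2 h in NOS1 KO. The list's median log2 fold change was -0.05, beside -0.01 for all genes.

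Rgs14, which speeds the shut-off of Gi proteins, was at 28.9 to 38 CPM (median 33) in controls, 16.4 to 24.3 CPM (median 19.3) at 2 h and 94.8 to 134 CPM (median 112) at 8 h in NOS1 KO libraries and 29.9 to 38.6 CPM (median 32.4) in controls, 15.6 to 18.1 CPM (median 16.6) at 2 h and 83.2 to 99.7 CPM (median 94.1) at 8 h in WT libraries. The 3 times did not overlap in either genotype. Its NOS1 KO mean at 2 h was 58.2% of control, the highest of the 38, with a log2 fold change of -0.78 ± 0.09 (adjusted p = 1.47e-08), and at 8 h it was 342% of control. Ric8b, a chaperone of Gs alpha subunits, stood at 54.5% of control at 2 h and 101% at 8 h, with overlap between 2 h and both other times. Cyth4, an Arf exchange factor of blood cells and the most abundant member, was at 415 to 476 CPM (median 445) in controls, 185 to 284 CPM (median 222) at 2 h and 332 to 524 CPM (median 446) at 8 h. Its 2 h libraries lay below all others (-0.96 ± 0.14, adjusted p = 1.12e-06), and control and 8 h ranges overlapped. The 8 h mean was 78.2% of control in set A and 118% in set B of NOS1 KO, beside 91.4% and 87.1% in WT.

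Initiator caspases were represented by Casp9, which the apoptosome activates, and Casp2. Casp9 was at 48.2 to 63.7 CPM (median 49.4) in controls, 21.5 to 34.1 CPM (median 26.2) at 2 h and 46.2 to 64.9 CPM (median 53.5) at 8 h in NOS1 KO libraries and 49.9 to 59.9 CPM (median 54.1) in controls, 22 to 30.5 CPM (median 26.7) at 2 h and 43.2 to 51.9 CPM (median 46.1) at 8 h in WT libraries. All 2 h libraries lay below all others in both genotypes, with a NOS1 KO log2 fold change of -0.95 ± 0.11 (adjusted p = 5.35e-09), and 8 h was not called against control in NOS1 KO (0.03 ± 0.11, adjusted p = 0.803). That 8 h level was 82.8% of control in set A and 125% in set B of NOS1 KO, beside 85.3% and 87.1% in WT. Casp2 was at 15.3 to 29.8 CPM (median 26.2) in controls, 8.46 to 13.3 CPM (median 10.9) at 2 h and 23.1 to 27 CPM (median 25.7) at 8 h, likewise lowest at 2 h (-1.17 ± 0.13, adjusted p = 1.97e-09). Ppp1r13b encodes ASPP1, which steers p53 toward apoptosis genes, and it was at 17.6 to 26.9 CPM (median 22.7) in controls, 5.57 to 12.8 CPM (median 8.06) at 2 h and 17.4 to 59 CPM (median 38.4) at 8 h. Its 2 h libraries lay below all others, with changes of -1.34 ± 0.30 at 2 h and 2.12 ± 0.31 afterwards (adjusted p = 0.000525 and 2.32e-07). The 8 h libraries of Ppp1r13b fell on both sides of the controls, with 219% of control in set A and 109.9% in set B of NOS1 KO, beside 180.0% and 91.6% in WT. Of 19 BCL2 family genes tested 0 were members, with 2 called lower and 7 higher at 2 h in NOS1 KO. Of 32 p53 targets 0 were members, with 8 lower and 8 higher. Members were 0.411% of the protein-coding genes that met the control condition, so lists this short could hold none by that share alone. The median log2 fold changes of the 2 lists at 2 h were -0.01 and -0.03, beside -0.01 for all genes.

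Bbs4, a subunit of the BBSome that moves cargo in cilia, Ccdc28b, which modifies Bardet-Biedl syndrome in humans, and Cep95, a centrosome protein, had low counts. Bbs4 was at 4.03 to 6.77 CPM (median 5.81) in controls, 1.72 to 3.60 CPM (median 2.77) at 2 h and 4.20 to 10.5 CPM (median 7.54) at 8 h in NOS1 KO libraries, and its 2 h libraries lay below all others. Its 8 h mean was 94.5% of control in set A and 158% in set B of NOS1 KO, beside 120.1% and 133% in WT. Ccdc28b was at 3.62 to 7.93 CPM (median 5.07) in controls, 1.86 to 3.15 CPM (median 2.57) at 2 h and 2.76 to 4.77 CPM (median 4.11) at 8 h. It fell to 49.8% of control at 2 h, with no overlap (adjusted p = 3.09e-05), and reached 76.2% of control at 8 h, the single member under the 80% of the rule in NOS1 KO. By set Ccdc28b stood at 57.5% at 8 h in set A and at 105% in set B of NOS1 KO, beside 79.8% and 106% in WT. Cep95 stood at 56.1% at 2 h and 143% at 8 h. Exons of Ccdc28b overlap those of the antisense gene Tmem234 over 14.96% of their bases, and exons of Bbs4 those of Adpgk over 3.21%. Tmem234 stood at 84.6 CPM in NOS1 KO controls and 84.8 CPM in WT controls, Adpgk at 34.8 and 37.9 CPM. Whether reads were counted by strand is not given in the sources used here, so the counts of these 2 members are uncertain. Exons of Iffo2 overlap those of Gm21969 on the same strand over 14.96% of their bases. How reads shared by overlapping genes were counted is not given either, so the counts of Iffo2 are also uncertain.

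Nlrp10, a NOD-like receptor family protein without leucine-rich repeats, was the noisiest member. It was at 4.43 to 8.64 CPM (median 5.04) in controls, 2.01 to 4.48 CPM (median 3.34) at 2 h and 2.99 to 18.3 CPM (median 8.16) at 8 h in NOS1 KO libraries and 3.57 to 7.92 CPM (median 5.23) in controls, 1.87 to 3.82 CPM (median 2.45) at 2 h and 1.82 to 11.2 CPM (median 3.51) at 8 h in WT libraries. The ranges overlapped between all times in both genotypes. The fall at 2 h was not called, and the rise from 2 h to 8 h was 1.49 ± 0.40 (adjusted p = 0.00149). Its level at 8 h followed the sets, with 203% of control in set A and 89% in set B of NOS1 KO, and 132% and 48.7% in WT. Within set B alone the NOS1 KO fall was -1.05 (adjusted p = 0.000199), and with the set as a term in the fit over all libraries it was -0.88 (adjusted p = 0.00598). Of 40 Toll-like receptors and signal partners tested 0 were members, and 26 were called higher at 2 h with 4 lower. Members were 0.411% of the protein-coding genes that met the control condition, so a list this short could hold none by that share alone.

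The remaining members have varied roles, and all 7 met the conditions in NOS1 KO, as did 29 of the 38 members. Tor4a, a torsin family ATPase, had the smallest error of the 38. It was at 82.1 to 92.3 CPM (median 87.5) in controls, 28.7 to 39.8 CPM (median 32) at 2 h and 85 to 98.7 CPM (median 91.2) at 8 h in NOS1 KO libraries, lowest at 2 h with no overlap (-1.43 ± 0.08, adjusted p = 4.93e-16). Iffo2, an intermediate filament family protein, was at 17 to 23.6 CPM (median 22.8) in controls, 6.03 to 9.81 CPM (median 8.23) at 2 h and 22 to 38.2 CPM (median 29.9) at 8 h, with 2 h below all others (-1.40 ± 0.15, adjusted p = 1.57e-09). Cttnbp2nl, a protein of the STRIPAK phosphatase and kinase complexes, was at 72.4 to 123 CPM (median 109) in controls, 45.5 to 54.1 CPM (median 50.6) at 2 h and 91.3 to 163 CPM (median 129) at 8 h, again with 2 h below all others (-1.04 ± 0.16, adjusted p = 4.1e-06). Pomk, a kinase of the sugar chain on dystroglycan, and Trmt12, an enzyme of wybutosine synthesis in phenylalanine tRNA, stood at 43.9% and 48.3% of control at 2 h and at 97.6% and 88.8% at 8 h. B430306N03Rik was at 47.8 to 102 CPM (median 83.9) in controls, 32.3 to 39.8 CPM (median 35.8) at 2 h and 224 to 392.5 CPM (median 319) at 8 h, and its 3 times did not overlap.

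The genes parted at 8 h. In NOS1 KO 17 of the 38, 44.7%, were called above control, against 34.9% of all genes, and 1, 2.63%, below it, against 37.2%, with a median log2 fold change of 0.34 and a range of -0.39 to 2.73. In WT, which chose the genes, 13 were called above and 1 below (34.2% and 37% of all genes). In 9 genes every NOS1 KO library at 8 h lay above every control (27% of all genes), and in 1, Zbtb1, every one lay below (25.6%). The NOS1 KO means of 8 genes were at 200% of control or more at 8 h: March1, Zfp324, B430306N03Rik, Rgs14, Arid3b, Zfp710, Gna15 and Napepld. Markers of neutrophils, a list of 13 genes, summed to 69.95 to 146 CPM in NOS1 KO controls, 95.8 to 263 CPM at 2 h and 128 to 555 CPM at 8 h. Lcn2 alone made up 73.0 to 407.5 CPM at 8 h, and the other 12 genes summed to 55.4 to 149.9 CPM at 8 h, against 66.5 to 136 CPM in NOS1 KO controls. The defining gene Ly6g reached 0.21 CPM at most, and the part of these markers in the members' levels was not tested. The count of members called lower at 8 h became 2 without NOS1 KO control replicate 3, 4 or 5, without LPS 2 h replicate 5 or without LPS 8 h replicate 3, and 3 without LPS 8 h replicate 5.

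How far a gene had returned depended on the scale. TMM factors were 1.25 to 1.31 in NOS1 KO controls, 1.02 to 1.06 at 2 h and 0.691 to 0.744 at 8 h. On library totals without these factors the median of all genes in NOS1 KO moved to -0.31 at 2 h, to -0.57 for 8 h against 2 h and to -0.88 for 8 h against control on the log2 scale. All 38 members were then called lower at 2 h, 35 higher from 2 h to 8 h, 5 above control at 8 h and 20 below it. The 3 members no longer called from 2 h to 8 h were Tfcp2 (0.30, adjusted p = 0.0609), Ccdc28b (0.09, adjusted p = 0.681) and Trmt12 (0.34, adjusted p = 0.15). Relative to all genes the members' median at 8 h was higher on both scales, at 0.34 beside -0.06 with TMM and at -0.48 beside -0.88 on library totals. A change of scale moves all genes by about the same amount, so the comparison on library totals adds no separate support. The statement that these genes recovered is thus one about their level relative to most other genes.

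**Figure D3:**
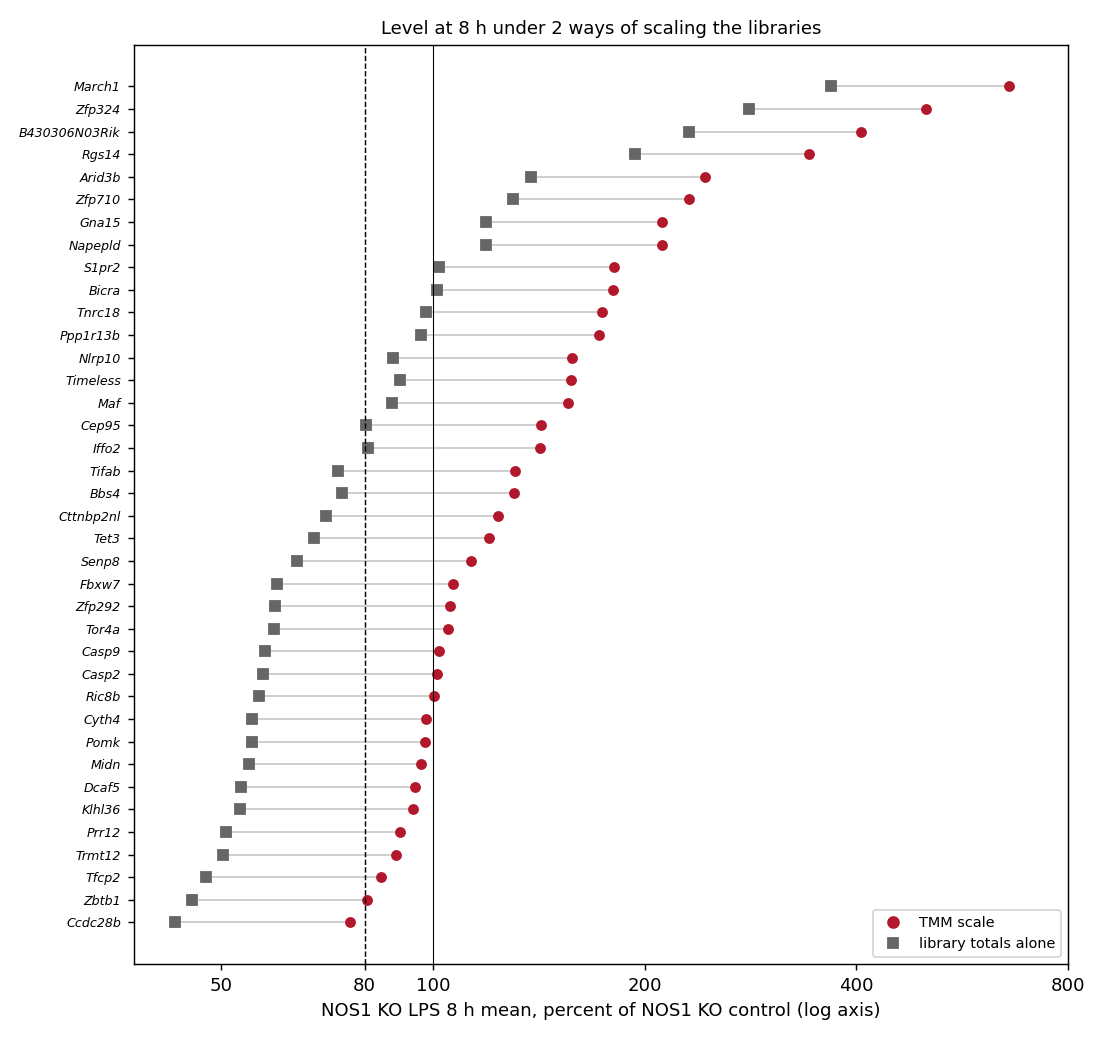
NOS1 KO mean at 8 h as a percent of the NOS1 KO control mean (log axis) for each of the 38 genes, with TMM scaling (red circles) and on library totals alone (grey squares); lines mark 80% and 100%. Ccdc28b is lowest at 76.2% and 43%, and March1 highest at 660.1% and 368.3%, on the TMM scale and on library totals.

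The sets of libraries differed in how far some genes returned, and the order of the sets was the same in both genotypes for part of them. In 7 genes (Tifab, Ppp1r13b, Napepld, Zfp324, Gna15, Nlrp10 and S1pr2) the 8 h level as a percent of control was at least 1.5 times as high in set A as in set B, in NOS1 KO and in WT. In NOS1 KO 5 more genes (March1, Bbs4, Ccdc28b, Casp9 and Cyth4) were at least 1.5 times as high in set B, and 0 genes were so in WT, where March1 and Cyth4 were higher in set A. At 2 h Midn and Napepld were at least 1.5 times as high in set A in both genotypes, and Bicra and Zfp292 in set B. In NOS1 KO Napepld stood at 49.7% of control at 2 h in set A and 31.5% in set B, Bicra at 21.6% and 48.6% and Zfp292 at 37.2% and 60.7%. In NOS1 KO alone B430306N03Rik stood at 60.6% in set A and 37.7% in set B at 2 h, and Ccdc28b at 41.2% and 63.1%. The fall at 2 h itself was present in each set, where all 38 NOS1 KO means lay below control. In NOS1 KO 25 genes met the 2 h and 8 h conditions in set A and 30 in set B. The labels do not name what separates the sets, and these differences were not tested because the sets were found in the same counts.

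**Figure D4:**
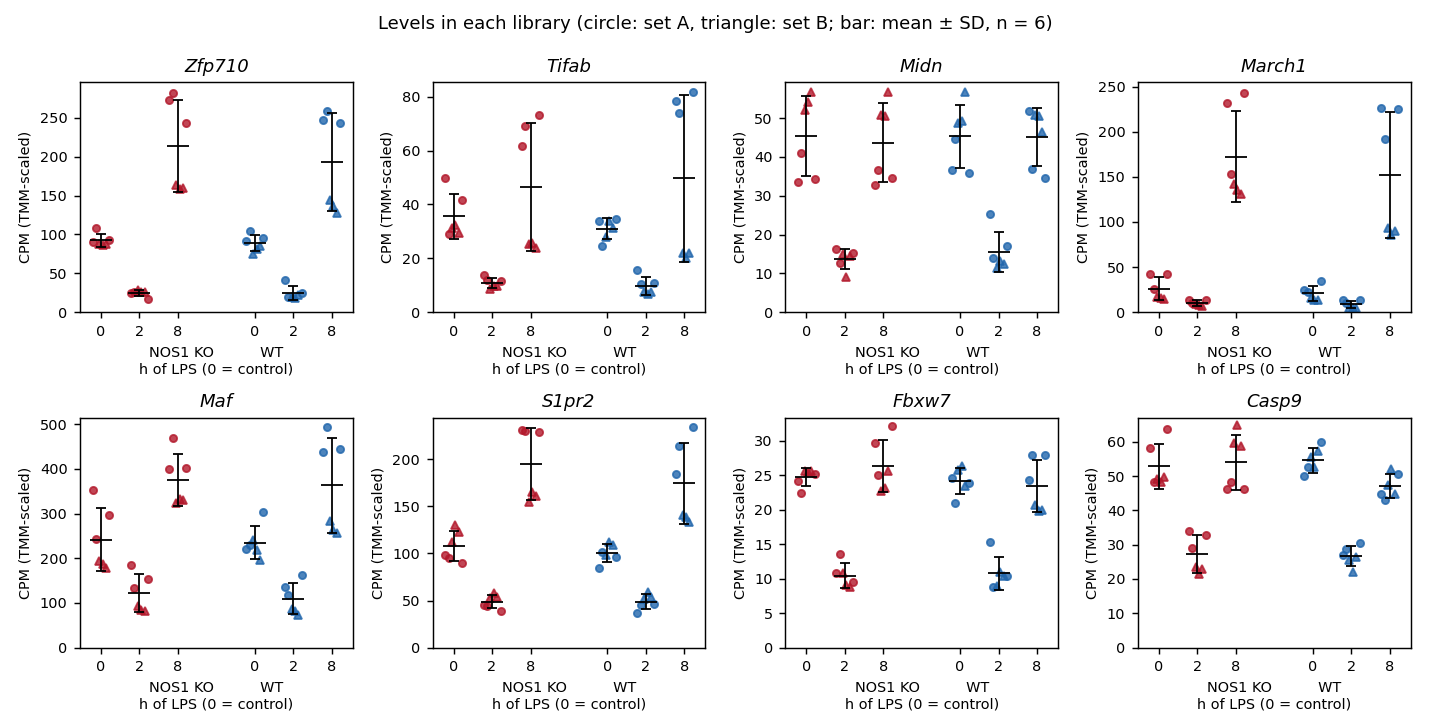
TMM-scaled CPM in each library of 8 members at 0 (control), 2 and 8 h of LPS, in NOS1 KO (red, left) and WT (blue, right), with circles for set A, triangles for set B and bars for the mean ± SD (n = 6). All 8 genes are lowest at 2 h; at 8 h Tifab splits by set, with NOS1 KO libraries at 23.7 to 73.3 CPM, while Midn returns to its control range.

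No member was called between the genotypes by edgeR's test. The contrasts between genotypes at each time were not fitted with the library set as a term, so spread between the sets stayed in their errors. At each time 0 of the 38 were called between NOS1 KO and WT, where 0.147% of all genes were called in controls, 0.0232% at 2 h and 0.1% at 8 h. The WT side of these contrasts also chose the genes. At an unadjusted p below 0.05 there were 0 members in controls (2.97% of all genes), 2 at 2 h (3.11% of all genes) and 6 at 8 h (9.28% of all genes). The 6 were Rgs14, Casp2, Cttnbp2nl, Timeless, Senp8 and B430306N03Rik, and all were higher in NOS1 KO. Rgs14 was at 94.8 to 134 CPM (median 112) in NOS1 KO and 83.2 to 99.7 CPM (median 94.1) in WT at 8 h, overlapping ranges with a difference of 0.29 ± 0.09 (adjusted p = 0.179). Casp2 was at 23.1 to 27 CPM (median 25.7) in NOS1 KO and 16 to 25.4 CPM (median 18.7) in WT, also overlapping (0.36 ± 0.12, adjusted p = 0.271). DESeq2 and limma-voom likewise called 0 members at each time, with a lowest adjusted p of 0.0828 for a member at 8 h by DESeq2.

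The responses themselves were compared by the genotype difference in the fold change. For the 2 h response 0 members and 0 of all genes were called (0% of all genes; 0 members and 1.2% of all genes at an unadjusted p below 0.05). For the 8 h against 2 h change 0 members were called (0%), with 0 members and 3.33% of all genes at an unadjusted p below 0.05. DESeq2 and limma-voom called 0 members in both, and limma-voom had 1 member at an unadjusted p below 0.05 for the 8 h against 2 h change. Of the response differences only that at 2 h was also fitted with the library set as a term, with 0 members called. For the 8 h response against control edgeR, DESeq2 and limma-voom called 0 members, and DESeq2 called 4 of all genes. Rgs14 was at 0.30 ± 0.13 there (edgeR unadjusted p = 0.0237, not called after adjustment). The differences in the 2 h response lay between -0.40 and 0.30 on the log2 scale, with standard errors of 0.12 to 0.56. Their 95% intervals lay within 1 of 0 for 34 of the 38 genes and reached -1.25 and 1.34 at most. The genes were chosen for a low WT mean at 2 h, and a choice of that kind by itself favours a smaller fall in NOS1 KO, so the sign of these differences is given as a description. Within set B alone March1 (0.61 ± 0.14, adjusted p = 0.0321) and Cttnbp2nl (0.39 ± 0.07, adjusted p = 0.00205) were called with a smaller fall in NOS1 KO, among 133 genes called there. Set A gave -0.43 and 0.01 for the 2 genes, with 0 genes called. The same choice in WT bears on these 2 calls.

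Of the 9 members that missed a condition in NOS1 KO, Ccdc28b missed the 8 h level. Maf, Cyth4, Casp9, Senp8, Ric8b, Cep95, Nlrp10 and Rgs14 stood between 50.5% and 58.2% of control at 2 h on the TMM scale. In WT the members nearest the 50% line were Rgs14 at 49.8% and Zfp292 at 49.7%, while Zbtb45 at 50.02% and Iqcc at 50.4% fell just outside it. Nearest the 80% line were Trmt12 at 83.1% and Ric8b at 84.5%, with 2810021J22Rik at 76.9% and Tmem220 at 76.7% outside. Bbs4 at 5.29 CPM and Ccdc28b at 5.37 CPM were nearest the expression limit, with Zbtb12 at 4.89 CPM and Rubcnl at 4.87 CPM outside.

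The members' transcripts were compared with those of other genes in GENCODE M21, as a description. The median 3′ untranslated region was 1939.5 bases in the 38 genes, 1384 bases in the 262 genes lowered at 2 h that had not returned and 1063 bases in the 9239 protein-coding genes with a WT control mean of at least 5 CPM. Median transcript lengths were 4083.5, 3651.5 and 3064 bases. The pentamer ATTTA, part of elements that shorten mRNA life, occurred at least once in the 3′ untranslated region of 73.7%, 76.3% and 68.6% of these genes. For its length, in regions of at least 100 bases, it was less dense in the 38 genes, with a median of 0.98 per kb, beside 1.33 in the 262 genes and 1.40 in the 9239. Median exon numbers were 8.5, 7 and 10, median gene spans 25146, 19873 and 25006 bases, and median transcript GC contents 51.7%, 51.3% and 49.98%.

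Other gene lists held no member, among them NF-kB targets, interferon-stimulated genes, AP-1 and immediate early factors, and Kruppel-like factors. Members were 0.411% of the protein-coding genes that met the control condition, so lists this short could hold none by that share alone. Genes raised at 2 h could not meet the 2 h condition in any case. All 32 NF-kB targets tested were called higher at 2 h in NOS1 KO, and of 36 interferon-stimulated genes 22 were higher at 2 h and all 36 higher from 2 h to 8 h. Of 77 tested histone and DNA modifying enzymes, with Tet3 as the single member, 25 fell and 19 rose at 2 h, and 35 rose and 22 fell from 2 h to 8 h. Of the 23 ERK feedback and ETS target genes tested 5 fell and 10 rose at 2 h, and 13 fell and 5 rose afterwards. Median log2 fold changes at 2 h were -0.12 in the modifying enzymes and 0.04 in the ERK and ETS list, beside -0.01 for all genes. From 2 h to 8 h they were 0.25 and -0.77, beside -0.04 for all genes.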

How the data were processed

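RNA of cultured mouse macrophages was sequenced in 36 libraries, 6 in each of 6 groups. The deposited values are whole-number counts for each gene, 1 file a library, made with HTSeq on mm10 per the submitters' processing notes. The sources used here do not give the aligner, annotation, HTSeq version or strand setting. All 54232 listed gene identifiers entered, and 54079 were found in GENCODE M21. Library totals of 8953489 to 18482551 set the precision for weakly expressed genes.

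The analysis used edgeR 4.0.16 (R 4.3.3): filterByExpr (12957 genes kept), TMM factors, 1 mean per group over all 36 libraries, quasi-likelihood F tests and Benjamini-Hochberg adjustment over all genes tested, called at an adjusted p below 0.05. Standard errors are of log2 fold changes, each taken as the size of the log2 fold change divided by the square root of its F statistic. The 95% intervals of genotype differences are the estimate and 1.96 SE on either side. Members were taken from WT means by the 3 conditions. The procedure was tested on simulated data. Members, gene lists and role groups were chosen with earlier results of these data known. Members were named as the 12 lowest at 2 h, the 10 most abundant, up to 4 per list, those missing a condition in NOS1 KO, those nearest each limit and up to 8 with the smallest genotype p, and further members were named under their role. Alternatives covered scaling, filters, DESeq2 1.42.0, limma 3.58.1, library sets, the conditions and leaving out each NOS1 KO library in turn, while WT libraries were not left out singly. Promoter windows come from RefSeq for GRCm38.p6. Lists, markers and motifs were described without a set test, and 1 list is not reported here. Replicate numbers follow accession order and were not used to pair libraries. In all 6 groups libraries 1, 2 and 6 fell in set A and 3, 4 and 5 in set B, and number 6 carries the BMDM label.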

Additional observations from a re-analysis of the deposited data

Results flagged for a closer look

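Single libraries stood apart from the other 5 of their group for 10 of the 38 genes, by the gap to the nearest library as a share of the group's range. Of 228 groups of 6 libraries tested, 14 stood out, 6.14%, where chance gives about 1 in 20. They came from 9 libraries, 4 of them from WT LPS 2 h replicate 1, and no explanation was weighed.

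In NOS1 KO controls, replicate 2 had 109 CPM of Zfp710 (nearest library 93.2) and 15.3 CPM of Casp2 (nearest 25.1), and replicate 6 had 23.5 CPM of Zfp292 (nearest 19). In NOS1 KO at 2 h, replicate 6 had 16.5 CPM of Zfp710 (nearest 25) and 6.61 CPM of Arid3b (nearest 4.9). Replicate 2 of that group had 7.4 CPM of Ric8b (nearest 5.06) and replicate 5 had 2.43 CPM of Klhl36 (nearest 3.5).

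In WT at 2 h, replicate 1 had 41.7 CPM of Zfp710 (nearest 24.9), 19.7 CPM of Dcaf5 (nearest 14.8), 15.3 CPM of Fbxw7 (nearest 10.9) and 7.61 CPM of Arid3b (nearest 4.8). Replicate 5 of that group had 6.78 CPM of Ric8b (nearest 4.84). Cyth4 stood at 613 CPM in WT LPS 8 h replicate 1, above the other 5 libraries, and Cttnbp2nl at 78.5 CPM in WT control replicate 1 (nearest 87.8).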

How the results depend on the processing

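Libraries were not paired, because the labels give no replicate numbers and, apart from the BMDM prefix, do not say which libraries belong together. The numbers used here follow accession order. The library set entered as a term in an alternative fit only. Gene values under alternatives were taken in NOS1 KO for 2 h against control and 8 h against 2 h, not for 8 h against control. Of 2280 such values 0 changed sign, 4 lost and 3 gained a call. The count of members called lower at 2 h in NOS1 KO was 37 in every fit without 1 NOS1 KO library, the count called higher afterwards 38, and the genotype difference in the 2 h response 0. Members called higher at 8 h than in control numbered 15 to 18 and lower 1 to 3, against 17 and 1 in the reported fit. Library totals alone gave 5 higher and 20 lower, and a log2 fold change of at least 1 gave 8 and 0. Lower members numbered 2 with the set as a term, 5 with set A alone and 2 with set B alone, which also gave 2 members in the genotype difference at 2 h. Genes meeting the conditions in both genotypes numbered 27 to 31 without 1 NOS1 KO library, against 29. They numbered 10 with a limit of 40% at 2 h, 73 with 60%, and 47 with a control mean of at least 1 CPM. Another 2 alternatives were chosen after seeing the data: without the 4 WT libraries with muscle transcripts 27 genes were shared, and 26 were shared with TMM factors from all listed genes. The NOS1 KO libraries alone gave no value for a genotype difference. The causes of these changes were not tested.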

Other observations

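The NOS1 KO list held 17 genes that the WT list did not. Rubcnl, which encodes the autophagy regulator Pacer, stood at 29.3% of control at 2 h and 715% at 8 h in NOS1 KO and at 31.4% and 414% in WT, but its WT control mean was 4.87 CPM. Rgs2, a regulator of Gq signalling, was at 41.6% and 80.2% in NOS1 KO and at 29.9% and 71.0% in WT. Tnfaip8l2, a negative regulator of Toll-like and T cell receptor signalling, was at 49.4% and 91.8% in NOS1 KO and at 55.8% and 83.8% in WT. These 3 genes were chosen after their values were seen.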
